A study of Caenorhabditis elegans with 2 samples.

Results

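Nuclear hormone receptor genes encode transcription factors that share a zinc finger DNA-binding domain and, in most cases, a ligand-binding domain, through which small lipophilic molecules such as steroids and fatty acids can switch the expression of their targets. Caenorhabditis elegans has far more of them than flies or mammals, because a family related to the vertebrate receptor HNF4 expanded in nematodes, and much of that expansion stands in gene arrays on chromosome V. Receptors of this family act in fat metabolism, detoxification, moulting and the timing of larval development. The genes described here are the protein-coding genes of build WBcel235 whose name starts with nhr-, without nhr-23 and nhr-25. They number 267 of 19985 protein-coding genes.

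The measurement was chromatin immunoprecipitation with sequencing of UNC-62, the worm MEIS and Homothorax counterpart with a homeodomain, in whole second-stage (L2) larvae. The strain was OP600, which carries the unc119(ed3) mutation and the integrated transgene wgIs600. The transgene supplies unc-62 joined to the tags TY1, EGFP and FLAG, with unc119. There was 1 group of 2 biological replicates, of pooled males and females, and no second condition. UNC-62 at a site in whole animals cannot be assigned to a tissue.

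Peaks were taken from 4 deposited lists of build ce11, which is the same assembly as WBcel235. They were 28005 candidate peaks from both replicates pooled, 30000 candidates for each replicate, and the reproducible peaks that the authors selected by irreproducible discovery rate (their optimal list). Candidates include background, since that selection starts from them. The signal value of a peak is the authors' own and served to rank peaks inside a list. The top set of a replicate means below its strongest peaks, as many as there are reproducible peaks. Read depth is unknown. A candidate was assigned to the protein-coding gene whose 5' end was nearest to its summit, within 5000 bp, so assignment describes position and does not establish a target. Overlap of these sites with enrichment in the control, or with binding of further proteins, was not tested.

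Of the 267 receptor genes, 182 had at least 1 pooled candidate (68.2%, exact 95% interval 62.2 to 73.7), against 12634 of all 19985 protein-coding genes (63.2%). A reproducible peak lay nearest to 9 receptor genes, which is 4.95% of the 182 with a candidate (interval 2.29 to 9.18). Over all protein-coding genes with a candidate the share was 2.71% (343 of 12634), so the interval of the receptor genes includes the background. The 9 genes were nhr-19, nhr-14, nhr-1, nhr-119, nhr-3, nhr-47, nhr-88, nhr-21 and nhr-20. They held 10 reproducible peaks, because nhr-14 had a pair of them. Every receptor gene candidate above the lowest signal of the reproducible set, 28.2, was in that set, and every one below was not. The call thus followed the pooled signal here, and a reproducible peak need not rank high in both replicates. The upstream peak of nhr-14, ranked 6918 in replicate 2, was called, while nhr-105, ranked 660 and 878, was not.

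The sequence around the summit is shown for 5 of these genes: the site with the highest signal (nhr-19), a site that stood in the top set of both replicates close to a 5' end (nhr-1), the sites with the most matches to GAGAGA (nhr-119 and nhr-88), and a site without one (nhr-21). Each line gives the plus strand of build WBcel235, centred on the summit. Capitals mark GAGAGA on either strand, and runs of it overlap. The MEIS core TGACAG was searched in the same way and would be in capitals too, but these stretches hold none.
nhr-19 (chrII:9603573-9603673): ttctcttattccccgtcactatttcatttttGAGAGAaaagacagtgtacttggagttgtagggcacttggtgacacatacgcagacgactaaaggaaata
nhr-1 (chrX:17513691-17513791): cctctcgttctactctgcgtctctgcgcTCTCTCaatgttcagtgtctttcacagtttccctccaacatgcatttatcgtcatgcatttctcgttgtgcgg
nhr-119 (chrII:2801044-2801144): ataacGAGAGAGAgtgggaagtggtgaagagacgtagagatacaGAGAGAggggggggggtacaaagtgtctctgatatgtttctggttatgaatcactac
nhr-88 (chrII:2974092-2974192): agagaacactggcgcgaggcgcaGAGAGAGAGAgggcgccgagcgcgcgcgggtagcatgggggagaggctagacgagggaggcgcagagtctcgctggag
nhr-21 (chrII:7337594-7337694): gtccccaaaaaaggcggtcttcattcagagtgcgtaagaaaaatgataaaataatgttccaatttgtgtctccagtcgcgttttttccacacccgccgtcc

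The highest signal among the receptor genes was at nhr-19, in one of its own introns, 1903 bp downstream of the 5' end (chrII:9603455-9603790). Its signal was 60.7 in the pooled list, where it ranked 65. In replicate 1 the overlapping peak ranked 64 with a signal of 41.4, and in replicate 2 it ranked 133 with a signal of 17.6. The scale of the signal differs between lists, so only the ranks are set side by side, and by rank this site stood in the top set of each replicate. A second candidate 568 bp upstream of nhr-19 ranked 757 in the pooled list, 15782 in replicate 1 and 381 in replicate 2.

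At nhr-14, a receptor known for roles in iron homeostasis and in the response to bacterial pathogens, one reproducible peak lay in an intron 864 bp downstream of the 5' end (chrX:8475146-8475481, signal 43.3, pooled rank 146). The other lay in intergenic sequence 1458 bp upstream (chrX:8477468-8477803, signal 34.8, pooled rank 250). The intronic site ranked 85 in replicate 1 and 532 in replicate 2. The upstream site ranked 168 in replicate 1 and 6918 in replicate 2, so it was high in replicate 1 alone.

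Promoter summits, meaning no more than 1000 bp upstream or 200 bp downstream, were found at 3 of the 9 genes. At nhr-1 the summit lay 322 bp upstream (chrX:17513573-17513908, signal 38.0, pooled rank 203), with ranks of 285 in replicate 1 and 122 in replicate 2. At nhr-119 it lay 494 bp upstream (chrII:2800926-2801261, signal 36.3, pooled rank 224), with ranks of 116 and 303. At nhr-47, the only one of the 9 on chromosome V, it lay in the 5' UTR, 2 bp from the annotated 5' end (chrV:5505087-5505422, signal 31.6, pooled rank 322), with ranks of 423 and 516. The 5' end of dnj-19 was 398 bp from the nhr-47 summit. In none of the other 8 genes did a second protein-coding 5' end lie within 1000 bp of the summit of the strongest peak.

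The remaining 4 genes had distal or intronic peaks. At nhr-3 the summit was intronic, 1837 bp downstream (chrX:14560173-14560508, signal 33.6, pooled rank 277), and ranked 459 in replicate 1 and 203 in replicate 2. At nhr-88 it was intergenic, 2497 bp upstream (chrII:2973974-2974309, signal 30.3, pooled rank 352), and ranked 305 and 1187. At nhr-21 it was intergenic, 1585 bp upstream (chrII:7337476-7337811, signal 29.3, pooled rank 384), and ranked 235 and 1788. At nhr-20 it was intergenic and 4606 bp upstream (chrIII:4237657-4237992, signal 28.95, pooled rank 391), with ranks of 614 and 172. The 5' end of F43C1.7 was 4750 bp away, nearly as close to that summit as nhr-20.

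**Figure D1:**
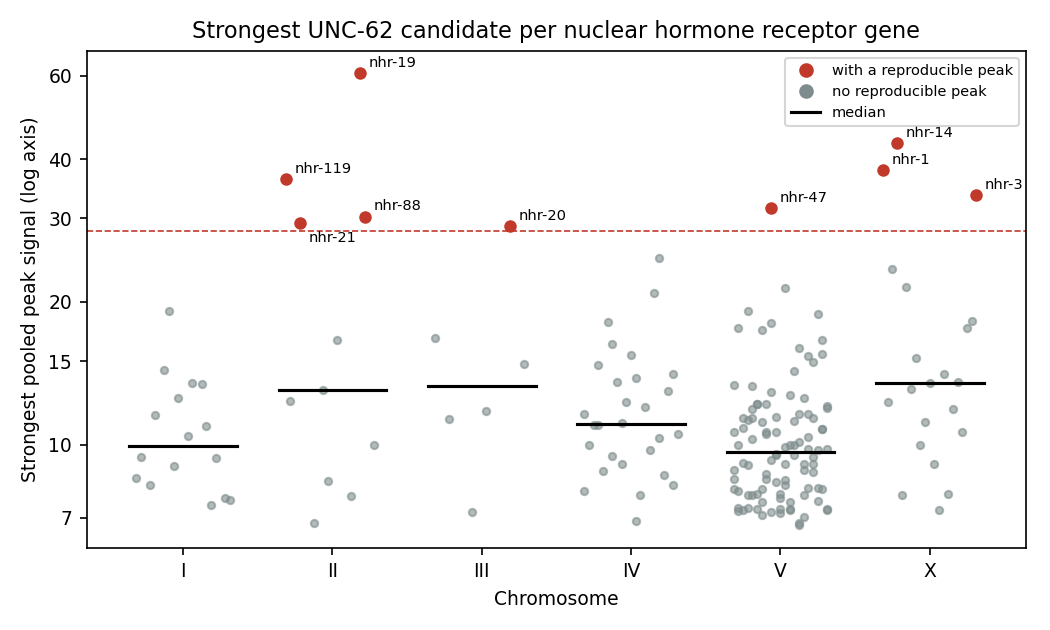
Each point is a nuclear hormone receptor gene with a pooled candidate, placed by chromosome (x axis) and by the signal of its strongest candidate (y axis, log scale); red points have a reproducible peak, grey points do not, black lines are medians and the dashed line is the lowest signal of the reproducible set, 28.2. Chromosome V holds 100 of the 182 genes and 1 red point, nhr-47, while chromosomes II and X hold 4 and 3.

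The receptor genes next in signal stood well below the lowest reproducible signal of 28.2. The highest was nhr-105 (signal 24.8, pooled rank 553, 2261 bp upstream), which ranked 660 in replicate 1 and 878 in replicate 2. It was followed by nhr-40 (23.4, rank 635), a receptor with a role in muscle and embryonic development, whose summit lay 879 bp upstream and which ranked 945 and 472. The summit at nhr-40 was 915 bp from the 5' end of T03G6.7. Then came nhr-71 (21.5, rank 791), which ranked 358 and 1065. These 3 genes and the 9 with reproducible peaks were the 12 receptor genes whose strongest pooled peak overlapped a top 2000 peak in both replicates, 6.59% of 182, against 3.46% of all genes with a candidate. Among the 1000 highest pooled peaks the count was 14 genes (7.69%, against 6.16%), and among the 207 strongest reproducible peaks it was 3, nhr-19, nhr-14 and nhr-1 (1.65%, against 1.38%).

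The other 12 of the 15 next in signal were mixed in how close their replicate ranks were. The nhr-149 peak (signal 21.4, in a coding exon) ranked 10275 in replicate 1 and 263 in replicate 2, and nhr-34 (20.9) ranked 1091 and 10241. The nhr-256 peak, 166 bp upstream, ranked 677 and 13901. At nhr-46, nhr-168, nhr-58 and nhr-10 the peaks ranked 991, 717, 1097 and 598 in replicate 1 and had no overlapping peak in replicate 2. The remaining genes, nhr-85, nhr-241, nhr-17, nhr-190 and nhr-48, had signals from 17.6 to 19.1. Of these, nhr-85 ranked 3836 and 3549, nhr-190 ranked 4680 and 4551, and nhr-48 ranked 2726 and 2951, so both replicates placed them alike. At nhr-241 the ranks were 3208 and 6010, and at nhr-17 they were 11928 and 1296.

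Over the 182 genes, the strongest pooled peak overlapped a peak of both replicates in 69 (37.9%, against 36.9% of all genes with a candidate). It overlapped a peak of 1 replicate only in 98 and of neither in 15. A replicate 1 peak overlapped in 71.4% and a replicate 2 peak in 58.2%, against 72.1% and 57% of all genes with a candidate, so these counts were near the background. Across the 69, Spearman's rho of the replicate ranks was 0.22. It was 0.26 across 4657 protein-coding genes. These are descriptions across genes, whose peaks share the 2 libraries. Taken alone, the top set of replicate 1 lay nearest to 7 receptor genes (3.68% of 190 with a candidate there, against 2.61% of all genes), and the top set of replicate 2 to 6 (3.33% of 180, against 2.49%). The genes in both top sets were nhr-1, nhr-19 and nhr-119. One gene of each top set had no reproducible peak, nhr-71 in replicate 1 and nhr-149 in replicate 2.

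**Figure D2:**
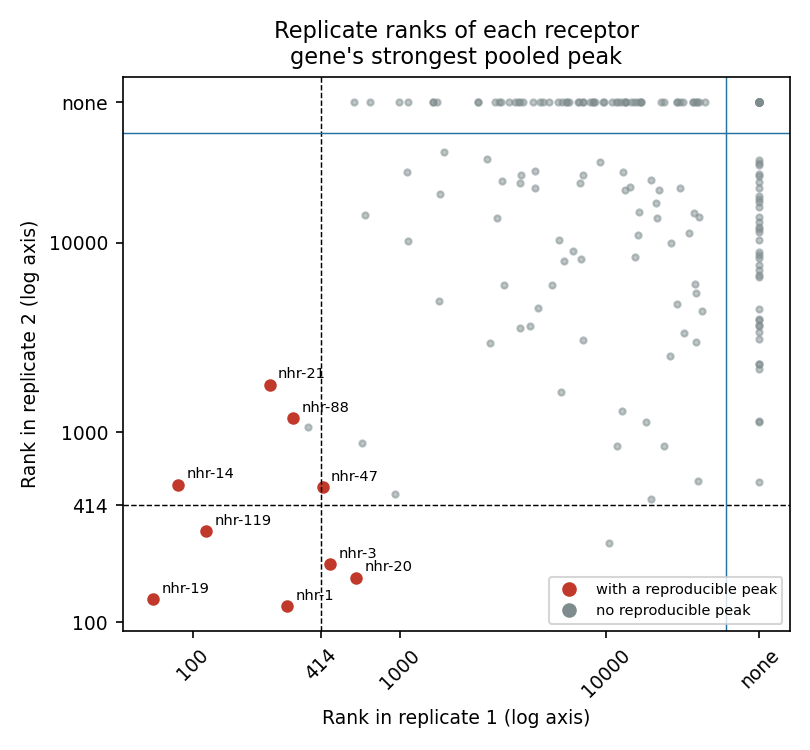
Each point is 1 of the 182 receptor genes, placed by the rank of the peak that overlaps its strongest pooled peak in replicate 1 (x axis) and replicate 2 (y axis), both on log scales; genes without an overlapping peak stand beyond the blue lines at "none", and dashed lines mark the end of the top set. The 9 genes with reproducible peaks (red) lie toward the lower left, and nhr-19, nhr-1 and nhr-119 lie within both dashed lines.

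The shares of receptor genes were uneven over the chromosomes. Chromosome V holds 167 of the 267, of which 100 had a candidate and 1 a reproducible peak (1%, interval 0.0253 to 5.45), against 2.12% of all genes with a candidate on that chromosome. On the other chromosomes, 82 of 100 receptor genes had a candidate and 8 of those a reproducible peak (9.76%, interval 4.31 to 18.3), against 2.89% of all genes with a candidate there. By chromosome, the counts were 4 of 11 on II (interval 10.9 to 69.2%), 1 of 6 on III (0.421 to 64.1%) and 3 of 21 on X (3.05 to 36.3%). Over all genes with a candidate the shares there were 2.67%, 3.42% and 3.31%. The counts were 0 of 16 on I and 0 of 28 on IV, against 3.06% and 2.06% of all genes with a candidate. The count of 0 on chromosome IV allows a share of up to 12.3%, and that on chromosome I up to 20.6%, so both intervals include the share of all genes.

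Candidates of any rank were also less dense around receptor genes on chromosome V than around those elsewhere. In the sequence nearest to their 5' ends they numbered 0.247 per kb, against 0.259 per kb for all genes of that chromosome. Off chromosome V the density was 0.367 per kb around receptor genes, against 0.288 per kb around all genes. The median length of that sequence was 3348 bp per receptor gene on chromosome V and 5776 bp elsewhere, against 3306 and 4088 bp for all genes. Reproducible peaks numbered 1.62 per Mb around receptor genes on chromosome V, from 1 peak, and 14.7 per Mb elsewhere, against 3.47 and 4.45 per Mb around all genes.

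Position within chromosome V was compared as well. In its inner part, from 25% to 75% of its length, 32 receptor genes had a candidate and 1 of them a reproducible peak. In its outer parts 68 had a candidate and 0 a reproducible peak (interval up to 5.28%). Of all protein-coding genes with a candidate, 2.89% in the inner part and 1.13% in the outer parts had a reproducible peak, so the share over all genes was also lower in the outer parts.

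Receptor genes were also split by whether they stand in arrays. Of the 150 genes with the 5' end of another receptor gene within 10000 bp, 87 had a candidate and 0 of them a reproducible peak (interval up to 4.15%), an interval that includes the 2.71% of all genes with a candidate. Of the 117 others, 95 had a candidate and 9 a reproducible peak (9.47%, interval 4.42 to 17.2). The arrays lie mostly on chromosome V (121 of the 150). There, 0 of 67 genes in arrays with a candidate had a reproducible peak (interval up to 5.36%). Outside arrays on chromosome V it was 1 of 33 (3.03%, interval 0.0767 to 15.8), against 2.12% of all genes with a candidate on that chromosome. Off chromosome V, 0 of 20 genes in arrays with a candidate had a reproducible peak, against 8 of 62 outside arrays (12.9%, interval 5.74 to 23.9) and 2.89% of all genes with a candidate there. The interval of the 20 genes reaches 16.8%. Genes in arrays had 0.235 candidates per kb of nearest sequence and those outside 0.362. On chromosome V these densities were close, 0.243 in arrays and 0.256 outside, while off chromosome V they were 0.208 and 0.407. Position in an array and candidate density thus moved together mainly off chromosome V, and their part in the difference was not tested.

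The number of candidates per gene moved with the calls too. Receptor genes had 377 candidates in all, 2.07 per gene with a candidate, against 1.92 over all genes. Of 89 receptor genes with 1 candidate, 0 had a reproducible peak (up to 4.06%), against 1.56% of all such genes. With 2 to 3 candidates it was 4 of 68 (5.88%), against 2.91%, and with 4 or more it was 5 of 25 (20%, interval 6.83 to 40.7), against 7.56%. Pooled peaks that overlap each other counted as separate candidates, so 1 site can add more than 1 candidate to its gene. The reproducible peaks of nhr-3, nhr-21 and nhr-47 each overlapped another candidate of the same gene. The part of such overlaps in these shares was not tested. By this count, the genes with the most candidates were nhr-3, nhr-31 and nhr-88 with 8 each, and nhr-17 and nhr-43 with 7 each. At nhr-31, which acts in the excretory canal, the strongest of the 8 had a signal of 13.55 (pooled rank 3436), and at nhr-43 the strongest had a signal of 12.98 (rank 4044), so many candidates did not always bring a strong one.

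**Figure D3:**
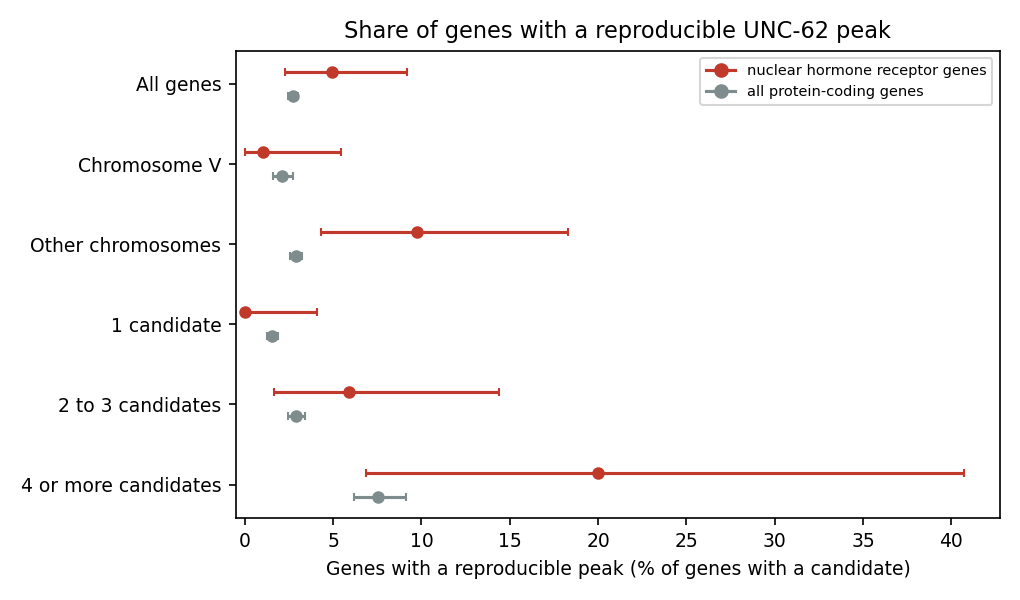
Points are the percentage of genes with a reproducible peak among genes with a candidate, with exact 95% intervals, for nuclear hormone receptor genes (red, upper point of each pair) and all protein-coding genes (grey, lower point), in all, by chromosome and by number of candidates. The receptor genes stand at 1% on chromosome V and 9.76% elsewhere, and at 0%, 5.88% and 20% with 1, 2 to 3 and 4 or more candidates.

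Most reproducible peaks of receptor genes lay outside promoters. Their summits had a median distance of 1522 bp, against 763 bp for 364 reproducible peaks assigned to any protein-coding gene. Promoter summits made up 3 of the 10 (30%, interval 6.67 to 65.2), against 51.6%. Of the 10, 6 were intergenic, 3 intronic and 1 in a 5' UTR, and 0 lay in a coding exon. Among all 377 receptor gene candidates the positions resembled the rest, with 22.5% at promoters against 25.9%, 45.9% intergenic against 39.9%, 27.6% intronic against 29.8% and 22.3% in coding exons against 24.3%. Their median distance was 1458 bp, against 1269 bp. With 10 peaks, the difference among the reproducible ones was not tested.

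**Figure D4:**
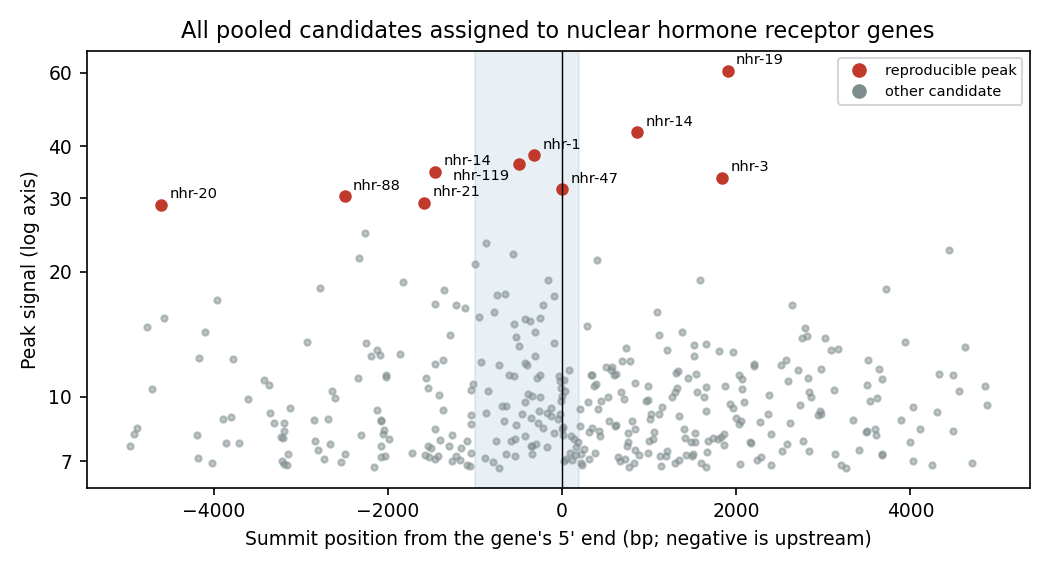
Each point is 1 of the 377 candidates assigned to receptor genes, placed by the distance of its summit from the gene's 5' end (x axis, bp, negative upstream) and by its signal (y axis, log scale); the shaded band is the promoter window and red points are reproducible peaks. Of the 10 red points, 3 lie in the band, 4 farther upstream and 3 downstream.

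Within 100 bp of the summit, GAGAGA was present on either strand in 7 of the 10 reproducible receptor gene peaks (70%, interval 34.8 to 93.3), against 50.7% of all reproducible peaks and 14.6% of all candidates. The peaks of nhr-88, nhr-119 and nhr-1 held it 5, 4 and 3 times with overlaps, and nhr-3, nhr-21 and the upstream peak of nhr-14 held none. TGACAG was in 0 of the 10 (up to 30.8%), against 11.6% of all reproducible peaks, and in 28 of the 377 candidates (7.43%), against 7.97% of all candidates. TGATNNAT was in 3 of the 10 (interval 6.67 to 65.2%), against 18.6% of all reproducible peaks, and in 17.2% of the 377, against 16.9% of all candidates. TGATAA, which can overlap TGATNNAT, was in 2 of the 10 (interval 2.52 to 55.6%), against 12.3% of all reproducible peaks. It was in 23.1% of the 377, against 18.4% of all candidates. The GC content of these windows was 47.9% ± 7.9 (SD, 10 peaks) in reproducible receptor gene peaks, against 44.9% ± 6.7 (SD) in the whole reproducible set, and 36.5% ± 6.9 (SD, 377 peaks) in receptor gene candidates, against 36.4% ± 7.1 (SD, 28005 peaks). At nhr-88 it reached 66.7%, and at nhr-14 it was 37.3%.

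By known role, receptors with a counterpart in flies or mammals other than HNF4 had candidates in all 8 cases (interval from 63.1%, against 63.2% of all genes). The median length of their nearest sequence was 7196 bp, against 3857 bp over all genes, and its part in this was not tested. They had a reproducible peak in 0 cases, against 2.71% of all genes with a candidate. With 8 genes, a share of up to 36.9% is allowed. The highest was nhr-85, related to Rev-erb and E75 and known to act in developmental timing, with an intronic peak (signal 19.1, pooled rank 1061) that ranked 3836 in replicate 1 and 3549 in replicate 2. At nhr-48, related to DAF-12 and the vitamin D receptor, the peak lay 656 bp upstream (17.6, rank 1359) and ranked 2726 and 2951. Both genes thus had an overlapping peak in each replicate list, outside its top set. Signals of the others were 15.5 at nhr-41 (related to TR2 and TR4), 14.1 at nhr-91 (related to GCNF), 13.8 at nhr-8 (cholesterol and xenobiotic handling), 11.3 at nhr-6 (the NR4A type, with a role in the spermatheca), 9.095 at nhr-67 (the tailless type, with a role in the anchor cell) and 7.21 at nhr-111. At nhr-67 the peak ranked 12341 in replicate 1 and had no overlapping peak in replicate 2, and at nhr-111 neither replicate had one.

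Receptors of metabolism all had candidates (11 of 11, interval from 71.5%, against 63.2% of all genes). The median length of their nearest sequence was 5746 bp, against 3857 bp over all genes, and its part in this was not tested. Of these receptors, 0 had a reproducible peak (interval up to 28.5%, against 2.71% of all genes with a candidate). Their signals ran from 7.24 to 16.7 with a median of 10.3, against a median of 10.5 over the 182 receptor genes and 10.2 over all genes. The highest were nhr-10 (16.7), which acts in the propionate response together with nhr-68 (7.24), and nhr-49 (14.3), a regulator of fat desaturation and fasting genes. The nhr-49 peak was intronic and ranked 7678 in replicate 1 and 3077 in replicate 2. At nhr-62, needed for the long life of diet-restricted worms, the intronic peak (13.4) ranked 5998 and 1629. At nhr-69 the peak (12.5) ranked 547 in replicate 2 and had none overlapping in replicate 1. The fat metabolism receptors nhr-80, nhr-76, nhr-64, nhr-66 and nhr-13 had signals of 11.8, 10.3, 9.43, 7.99 and 7.26, and nhr-114, which protects the germ line on some diets, had 9.065.

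Receptors of stress and xenobiotic responses had 1 reproducible member of 6 with a candidate, nhr-14 (16.7%, interval 0.421 to 64.1, against 2.71% of all genes with a candidate). The nhr-57 peak, 217 bp upstream of a gene induced by hypoxia (signal 16.6), ranked 27274 in replicate 1 and 2979 in replicate 2, and the nhr-45 peak (13.5) ranked 1456 in replicate 1 and had none overlapping in replicate 2. The signals of nhr-28 and nhr-86, a receptor of intestinal immunity, were 7.82 and 7.29. No pooled candidate was assigned to nhr-176, which acts in thiabendazole metabolism. Receptors of development had 1 of 8 with a candidate, nhr-1 (12.5%, interval 0.316 to 52.7, against the same 2.71%), followed in signal by nhr-40. The lists by role overlap, so their counts are not separate. The development genes nhr-6, nhr-41, nhr-67, nhr-85 and nhr-91, and nhr-8 of the stress list, were also counted among the receptors with a counterpart in flies or mammals. The moulting gene nhr-74 had a signal of 9.35, and no pooled candidate was assigned to nhr-2 and nhr-60.

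Genes that work with these receptors were looked at in 3 lists. Of 5 receptor genes with another name, all 5 had a candidate (interval from 47.8%, against 63.2% of all genes). The median length of their nearest sequence was 7532 bp, against 3857 bp over all genes, and its part in this was not tested. Of these 5 genes, 0 had a reproducible peak. The interval of that 0 reaches 52.2%, and the share of all genes with a candidate was 2.71%. Just outside the set stood daf-12, the receptor for dafachronic acids in dauer formation and developmental timing, with an intronic peak of signal 28.03 at pooled rank 424. It ranked 1482 in replicate 1 and 4713 in replicate 2. The others were unc-55 (11.3) and fax-1 (8.71), which act in neurons, odr-7 (10.01), which acts in olfactory neurons, and sex-1 (10.6), an X chromosome signal element of sex determination. Of 7 ligand synthesis genes and coregulators, 5 had a candidate and 1 of those a reproducible peak (20%, interval 0.505 to 71.6, against the same 2.71%). That gene was cbp-1, the p300 and CBP type acetyltransferase. Its peak lay 880 bp upstream (chrIII:9765461-9765796, signal 60.5, pooled rank 66), with ranks of 58 and 152. The DAF-12 corepressor gene din-1 had 9 candidates, and its strongest, 777 bp upstream, stood just outside the set (27.8, pooled rank 432) with ranks of 1015 and 195. The dafachronic acid synthesis genes dhs-16, hsd-1 and daf-9 had signals of 12.4, 9.31 and 9.19, and daf-36 and the Mediator subunit gene mdt-15 had no pooled candidate. The last list held 6 genes known as targets of NHR-49, NHR-10 or NHR-68 (fatty acid desaturase, acyl-CoA synthetase and propionate shunt genes). Of these, 5 had a candidate and 0 a reproducible peak (interval up to 52.2%, against the same 2.71%). In order of signal they were hphd-1 (13.4), fat-5 (12.5), fat-6 (11.85), fat-7 (8.30) and acs-2 (7.80), with no pooled candidate at acdh-1. The fat-5 peak lay 2105 bp downstream of its 5' end, in an intron of twk-42. The fat-6 summit was 267 bp from the 5' end of ZK822.9.

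**Figure D5:**
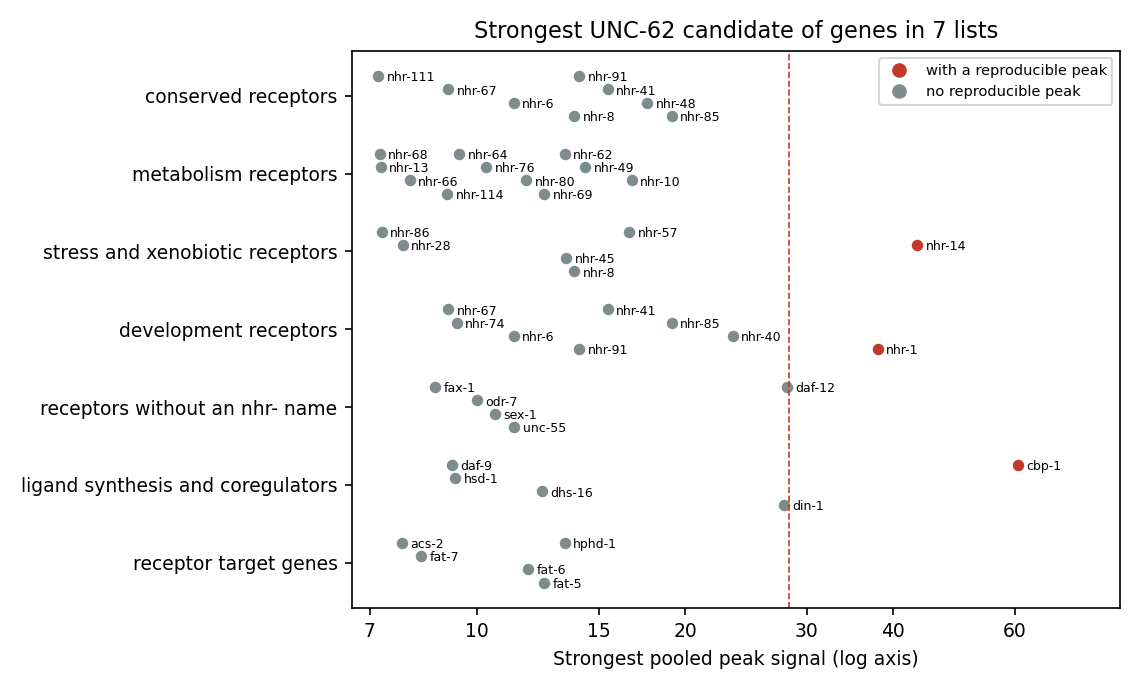
Points are genes of 4 lists of receptor genes and 3 lists of related genes (rows), placed by the signal of their strongest pooled candidate (x axis, log scale); red points have a reproducible peak and the dashed line is the lowest signal of the reproducible set, 28.2. The red points are nhr-14, nhr-1 and cbp-1, with daf-12 and din-1 just left of the line.

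The same counts were made for 2 other families of transcription factors. Of 47 homeobox genes named ceh- with a candidate, 4 had a reproducible peak (8.51%, interval 2.37 to 20.4). Of 16 basic helix-loop-helix genes named hlh- with a candidate, 1 had a reproducible peak (6.25%, interval 0.158 to 30.2). Both intervals include the 4.95% of the receptor genes and the 2.71% of all genes with a candidate. Genes whose strongest peak overlapped the top sets of both replicates made up 1.65% of receptor genes with a candidate (3 of 182). The share was 8.51% of homeobox genes (4 of 47) and 6.25% of hlh- genes (1 of 16), against 1.35% of all genes with a candidate. No pooled candidate was assigned to 85 receptor genes, which are those outside the 68.2% with a candidate (63.2% over all genes). Of the 85, 54 had a candidate in a replicate list and 31 had none in any list. This split was not counted over all protein-coding genes, so it is not read as a trait of the receptor genes.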

How the data were processed

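Chromatin immunoprecipitation peaks of tagged UNC-62 in L2 larvae (1 group, 2 biological replicates) were analysed as deposited. The authors deposited narrowPeak lists with a signal value per peak, made against a control, per the file headers and accompanying notes; the sources used here name no aligner, peak caller or threshold. The ce10 lists and the −log10 q column were not used. The reproducible list holds 414 peaks, and the top set of a replicate its 414 strongest. Peaks were ranked by signal within a list, and peaks of different lists were matched by an overlap of at least 1 bp, so neighbouring pooled peaks can share a replicate peak. Genes came from Ensembl release 115 (WBcel235), sequences from the RefSeq copy of that assembly. All peaks lay within its chromosome lengths. Nearest genes, overlaps and motifs were computed in Python 3.11.15 with SciPy 1.17.1, and the nearest-gene and overlap steps were checked on planted positions. Ties for the nearest gene (18 peaks) went to the lower gene identifier.

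Shares have exact (Clopper-Pearson) 95% binomial intervals. They cover counting error only and treat genes as independent, which neighbours are not. No test was made: the members and gene lists were chosen with earlier results of these data known, and there is no second condition. Named genes are those with a reproducible peak, the 15 next by signal, members of the lists by role, genes in the top 414 of either replicate and the 5 with most candidates. Splits by chromosome V, its inner and outer parts and length of nearest sequence were added after the data were seen. Protein sequences were not used here.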

Additional observations from a re-analysis of the deposited data

How the results depend on the processing

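No paired analysis was possible because there is 1 group. The members with a pooled candidate numbered 182, and 118 with a distance limit of 1000 bp. The 9 members with a reproducible peak became 4 at 1000 bp (nhr-1, nhr-14, nhr-47 and nhr-119, 3.39% of 118). They became 5 (3.76%) when all genes with a summit at most 2000 bp upstream or 500 bp downstream counted. The share over all genes was not counted at these settings, so these counts are not read as a trait of the members. Members numbered 3 in the 207 strongest reproducible peaks (1.65% of 182, against 1.38% of all genes with a candidate) and 14 among the 1000 highest pooled peaks (7.69%, against 6.16%). These changes follow from the narrower windows and shorter or longer lists. With either replicate left out, the top set of the other was used, which is not a reproducibility call. Replicate 1 alone gave 7 members (3.68% of 190 with a candidate there, against 2.61% of all genes), of which 6 were among the 9. Replicate 2 alone gave 6 (3.33% of 180, against 2.49%), of which 5 were among the 9. In splits chosen after the data were seen, 1 member on chromosome V had a reproducible peak (1%) and 8 elsewhere (9.76%). Over all genes with a candidate the shares were 2.12% and 2.89%. Within chromosome V the count was 1 in the inner part and 0 in the outer parts (0%), against 2.89% and 1.13% of all genes. Promoter summits rose to 38.5% of member candidates with a window of 2000 bp upstream and 500 bp downstream, and GAGAGA was in 11.9% within 50 bp and 29.4% within 200 bp, against 17.2% within 100 bp. The nearest 5' end of any transcript, or with microRNA genes included, gave the same 9 members. Members in arrays had 0 reproducible peaks at 5000, 10000 and 20000 bp. Members in the top 2000 of both replicates numbered 12 (6.59% of 182, against 3.46% of all genes with a candidate), and 9 to 14 under the alternatives. The share over all genes was not counted under these alternatives. Read depth is unknown, and 2 replicates limit what the ranks can show.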
